A study of Mus musculus with 30 samples.

Results

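The comparison described here sets the ventral presumptive retinal pigmented epithelium (pRPE) against the ventral optic stalk (OS) of the mouse eye at embryonic day 12 (E12). Its members were chosen by their labelled position and were the 16 ventral libraries of the 30 in the E12 count table, 7 from the ventral pRPE and 9 from the ventral OS. The ventral pRPE libraries came from a distal (n = 4) and a proximal (n = 3) region, and the ventral OS libraries from a distal (n = 3), a middle (n = 4) and a proximal (n = 2) region. RNA was measured by Geo-seq, in which a small area of a cryosection is cut out by laser and its cDNA is amplified and sequenced, so that each library keeps its position.

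All libraries, in both groups, were labelled with the control genotype. Per the study's methods the controls were littermates without the Dct-Cre transgene, on a C57Bl6/J background, and 4 control embryos were sectioned. No E12 library here carried a deletion or a treatment. The labels give each library a batch, A or B, but do not tie it to an embryo. With 7 and 9 libraries from 4 embryos, some libraries of each tissue shared an embryo. The p-values below treat libraries as independent, and as measures of the spread between embryos within a tissue they are too small. The study's own list of the mouse behind each library was not used here.

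The pRPE and the OS arise from the same optic vesicle. The pRPE is a single-layered epithelium that becomes the pigmented layer behind the retina, and its melanosomes hold enzymes, transporters and structural proteins under the control of the transcription factors Mitf and Otx2. The OS joins the eye to the brain, is marked by the paired-box factor Pax2, and later guides the axons of retinal ganglion cells while its cells turn into astrocytes of the optic nerve. Wnt and BMP signals favour pRPE identity, whereas Hedgehog signals from the ventral midline favour that of the stalk.

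Total counts on genes had a median of 2742371 in the ventral pRPE (range 1557558 to 4664734) and of 2411441 in the ventral OS (range 1421918 to 3030779). The tables were sparse. Of the 56484 genes listed, 40095 had no count in any ventral library and 382 nuclear genes had one in all 16. Among the 4776 genes with more than 10 counts in at least 3 of the 16 libraries, which were tested, 45.5% of the values were 0. Several genes that nearly every cell uses (Actb and Eef1a1) were also listed at 0 throughout, so a value of 0 is given here only as a listed 0. Within a bulk area, fewer cells of a type and less RNA per cell cannot be told apart.

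The number of detected genes per library, counted as genes with at least 1 count, was 4371 ± 1063 (SD, n = 7) in the ventral pRPE and 3633 ± 1355 (SD, n = 9) in the ventral OS. The lowest, median and highest values were 2979, 4285 and 5566 in the pRPE and 1730, 4313 and 5250 in the OS. The groups overlapped, but 3 OS libraries (replicates 38, 40 and 68, with 2244, 2106 and 1730 genes) lay below every pRPE library. The difference of 738 genes did not exceed the library spread (p = 0.251, adjusted p = 0.503 over 2 library measures, exact permutation test, two-sided). It pointed opposite ways in the batches. In batch A the pRPE libraries held 1628 genes more than the OS libraries (p = 0.114, n = 4 and 4, exact permutation test), and in batch B the difference was -381.6 genes (p = 0.661, n = 3 and 5, exact permutation test). When every library was thinned to the lowest nuclear total of 724603 counts, 4069 ± 1037 nuclear genes remained in the pRPE and 3350 ± 1321 in the OS. Mitochondrial genes took 43.5% ± 6.01 of the counts in the pRPE and 45.4% ± 5.63 in the OS (SD; exact permutation test, p = 0.509).

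**Figure D1:**
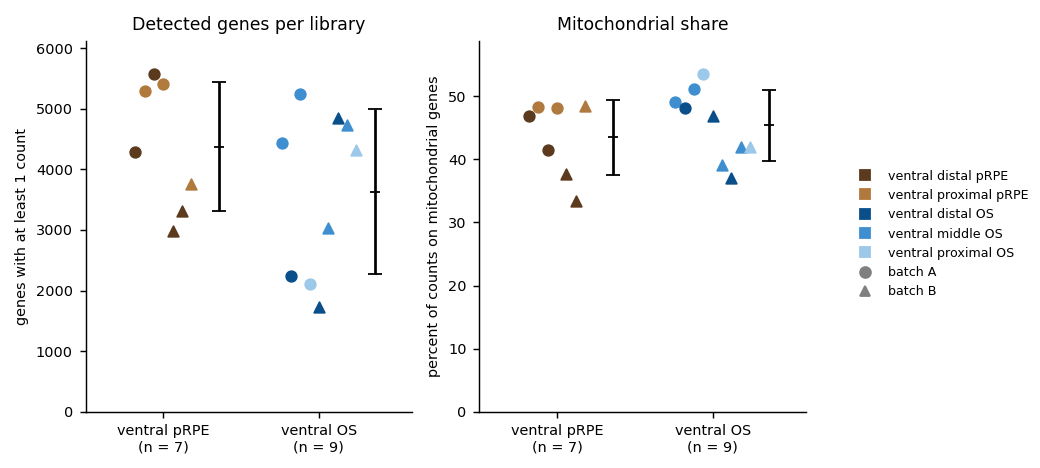
The number of genes with at least 1 count (left) and the percent of counts on mitochondrial genes (right) in each ventral library, with the mean and SD of each group beside the points. Colours give the region and shapes the batch. The 3 OS libraries with 1730 to 2244 detected genes lie below all 7 pRPE libraries, whereas the mitochondrial shares of the groups overlap.

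For each gene the tissues were compared by the quasi-likelihood test of edgeR, with TMM scaling and the batch in the model, and levels are given on that scale as CPM, counts brought to a common library size. A gene was called at a log2 fold change beyond 0.58 in either direction with an adjusted p (Benjamini-Hochberg over all tested genes) under 0.05. Of the 4776 genes tested, 3 were called (0.0628%), all higher in the pRPE, namely Gpnmb, Gdf11 and Scara5. None was called lower. Gpnmb and Scara5 passed the filter of 3 libraries through the pRPE alone, so their direction was in part set by that filter. At an unadjusted p under 0.05 there were 676 genes (14.2%), 422 higher in the pRPE (8.84%) and 254 lower (5.32%). That split moved with the setting, to 381 higher and 397 lower with DESeq2's size factors, 285 and 300 with the mitochondrial share as a covariate, 446 and 96 in batch A alone, 92 and 199 in batch B alone, 512 and 78 by limma voom and 180 and 14 by Fisher's exact test on the presence of a count. Libraries of a group varied widely (common dispersion 6.36). The median log2 fold change over all tested genes was 0.27, and DESeq2's size factors moved it to -0.02, so fold changes below are to be read against that shift. The number of calls depended on the filter and the tool. It was 9 of 2871 genes (0.313%) with a count in at least 8 libraries, 180 of 4036 by DESeq2 (127 higher and 53 lower), 28 by limma voom and 0 by edgeR's earlier quasi-likelihood method, which gave 375 genes at an unadjusted p under 0.05. With the counts summed per tissue and block of library numbers no gene was called, beside 187 at an unadjusted p under 0.05.

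Gpnmb, a transmembrane glycoprotein of melanosomes and lysosomes, had the lowest p. Its level in the ventral pRPE ran from 80.97 CPM in proximal replicate 87 over a median of 378 to 922 CPM in distal replicate 36, and all 7 libraries held counts. In the ventral OS, 6 of 9 libraries were listed at 0 and the others, all from the middle region, held 1.098, 11.8 and 13.97 CPM. The groups did not overlap, and the log2 fold change was 7.17 (SE 1.15, edgeR adjusted p = 0.00198), and leaving out any 1 of the 16 libraries kept the call, with log2 fold changes between 6.87 and 7.78 and a highest adjusted p of 0.0163. Within the pRPE, the 4 distal libraries (378 to 922 CPM) lay above the 3 proximal ones (80.97 to 299 CPM), a difference between regions that was not tested. TMMwsp, DESeq2's size factors and total counts alone each kept the call of Gpnmb and lost those of Gdf11 and Scara5. The Gpnmb call also held with the block of library numbers in place of the batch (adjusted p = 0.00739) and with detected genes per library as a covariate (adjusted p = 0.0099), and was lost in batch A alone (adjusted p = 0.223), in batch B alone (0.477), with edgeR's earlier method (0.232) and with the block sums (0.817).

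Gpnmb lies on chromosome 6, from 49036546 to 49070929 on the plus strand (GRCm38, GENCODE M21), and no other gene of that annotation overlaps it. The sequence before its start site is shown because Gpnmb is the gene on which the comparison rests most firmly. It is the stretch chr6:49036268-49036517 of GRCm38.p6 (plus strand, 250 bases, from RefSeq's gene starts), with the E-box letters CANNTG, the general motif of basic helix-loop-helix factors such as Mitf, in capitals.
Gpnmb: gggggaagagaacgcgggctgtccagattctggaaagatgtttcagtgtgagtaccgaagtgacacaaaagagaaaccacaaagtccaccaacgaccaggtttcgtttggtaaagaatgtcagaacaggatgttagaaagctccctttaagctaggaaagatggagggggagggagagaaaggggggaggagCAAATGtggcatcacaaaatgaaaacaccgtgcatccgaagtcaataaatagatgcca
The window held 1 such match, and 72.3% of the 32851 RefSeq promoter sequences held at least 1. Those sequences were searched as listed and were not cut to the 250 bases shown, so the shares may not be for the same length. CATGTG and CACGTG, narrower forms within CANNTG, all searched on both strands, were not found in the Gpnmb window. They occurred in 14.2% and 7.15% of all the promoter sequences, and in those of 4 and 2 of the 7 tested pigment genes that matched the RefSeq table. A match of letters is not a measured site.

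Gdf11, a secreted ligand of the TGF-beta family, had counts in all 16 libraries. It lies on chromosome 10 from 128882295 to 128891718 on the minus strand, with no overlapping gene and with Sarnp and Cd63 within 20 kb in GENCODE M21. Its level in the ventral pRPE was lowest at 2061 CPM in distal replicate 66, with a median of 5585 and a highest value of 9649 CPM. In the ventral OS the lowest, median and highest values were 702, 1727 and 3307 CPM. One pRPE library, replicate 66, lay among the OS libraries and the other 6 lay above all of them. The log2 fold change was 1.66 (SE 0.31, edgeR adjusted p = 0.0413). DESeq2's size factors gave a log2 fold change of 0.89, and the call was kept in 5 of the 16 fits that left out 1 library, with adjusted p-values between 0.0101 and 0.161. It was lost with the block of library numbers (log2 fold change 1.72, adjusted p = 0.119) and kept with detected genes per library as a covariate (1.83, 0.0368).

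Scara5, a scavenger receptor that takes up ferritin, was counted in all 7 pRPE libraries and in 1 OS library. The pRPE levels had a lowest value of 1.21 CPM in proximal replicate 87, a median of 365 and a highest value of 1062 CPM, and the single OS library with counts, middle replicate 39, held 90.6 CPM. The groups overlapped through these 2 libraries alone, with a log2 fold change of 6.44 (SE 1.32, edgeR adjusted p = 0.0413), and 6 of the 16 fits that left out 1 library kept the call. The call was lost with the block of library numbers (log2 fold change 7.53, adjusted p = 0.0762) and with detected genes per library as a covariate (6.59, 0.0688), where the fold changes were no smaller. Without OS replicate 39 the log2 fold change was 13.1, against OS libraries that were then all listed at 0. As for Gpnmb, the distal pRPE libraries (279 to 1062 CPM) included the highest levels and the proximal ones ran from 1.21 to 365 CPM.

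**Figure D2:**
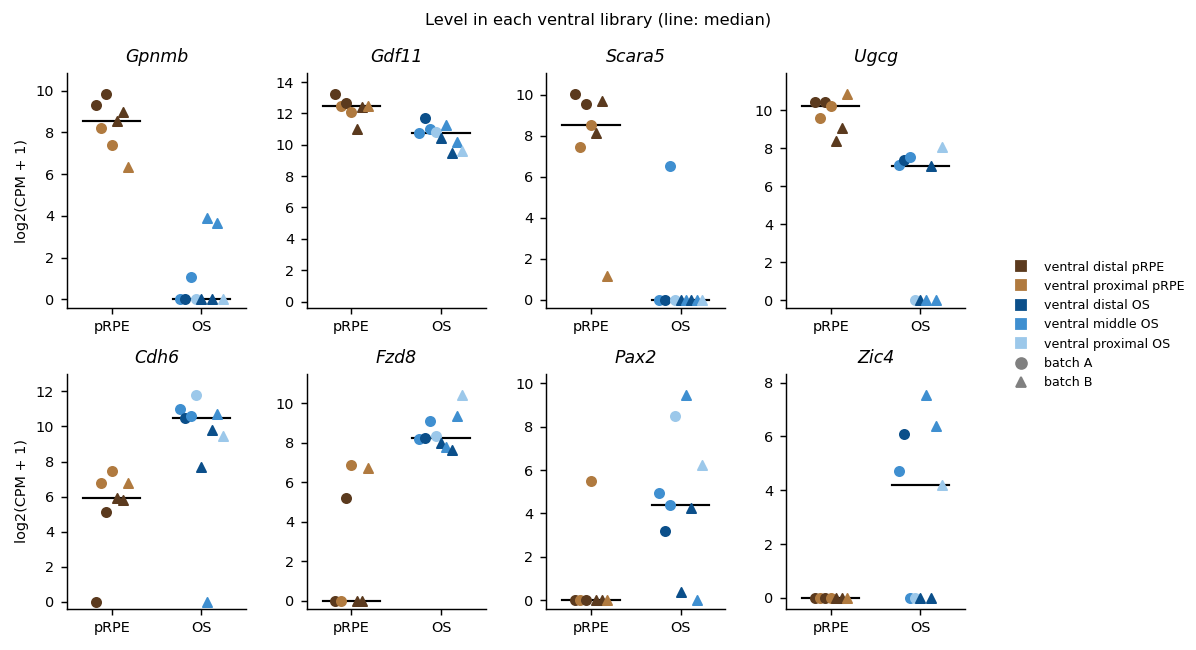
Levels of 8 genes in each ventral library as log2(CPM + 1), with the median of each group as a line. Colours give the region and shapes the batch. Gpnmb and Ugcg of all 7 pRPE libraries lie above all 9 OS libraries, Fzd8 shows the opposite order, Gdf11, Scara5, Cdh6 and Pax2 overlap, and Zic4 is listed at 0 in every pRPE library.

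Every pRPE library lay above every OS library in 5 of the 4776 tested genes (0.105%), which were picked out after their values were seen. Beside Gpnmb they were Ugcg, Ybx1, Mt4 and the long noncoding RNA A830019L24Rik. Ugcg, the enzyme that makes glucosylceramide, had a lowest, median and highest level of 340, 1211 and 1877 CPM in the pRPE and of 0, 134 and 273 CPM in the OS (log2 fold change 3.38, SE 0.98, edgeR adjusted p = 0.124). Ybx1, a cold-shock protein that binds RNA, ranged from 338 to 759 CPM in the pRPE and from 0 to 214 CPM in the OS (2.68, SE 0.88, adjusted p = 0.160). Mt4, a metallothionein, ranged from 13.3 to 37.4 CPM and from 0 to 12.9 CPM, so that its groups were separated by less than 1 CPM. None of these 4 passed the test. The OS libraries lay above every pRPE library in 3 genes (0.0628%), namely Fzd8 and the predicted transcripts Gm44822 and Gm49702, which lie within Prmt3 and Adcy5 on the same strand, so that reads of the host gene could be counted under them.

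The other genes named by rule as having the lowest p on the pRPE side were Magi2, Abhd3, Fbxl4, Brd8, Ccdc88c, Susd1, Sphkap, Shb and Epas1, and none passed the test (edgeR adjusted p between 0.0816 and 0.0992). All but Magi2 and Brd8 had counts in at most 2 OS libraries and passed the filter through the pRPE alone. Ccdc88c, which binds Dishevelled in Wnt signalling, was the one among them with counts in all 7 pRPE libraries. Its levels there were 10.02 at the lowest, 290 at the median and 428 CPM at the highest, and the OS libraries were listed at 0 apart from distal replicate 88 with 73.2 CPM (log2 fold change 5.51, SE 1.37, adjusted p = 0.0992, and 12.2 without OS replicate 88, against OS libraries then all at a listed 0). Sphkap, an anchor of protein kinase A, and Shb, an SH2-domain adaptor, were each counted in 5 of 7 pRPE libraries and in no OS library. Against the limit of 3 counts per OS library, the mean pRPE level of Sphkap was at least 119-fold higher, or at least 71.4-fold without pRPE replicate 6, and that of Shb at least 84.1-fold higher. Epas1, the hypoxia-inducible factor HIF-2 alpha, was counted in 6 of 7 pRPE libraries with a median of 22.4 and a highest value of 212 CPM in replicate 66, and 7 of 9 OS libraries were listed at 0. Magi2, a scaffold protein of cell junctions, was counted in 5 of 7 pRPE and 4 of 9 OS libraries, with highest values of 501 and 8.04 CPM.

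On the OS side, Cdh6, a cell adhesion molecule of the cadherin family, had the lowest p of the 12 genes named by rule on p alone. Its lowest, median and highest levels were 0, 1453 and 3569 CPM in the OS and 0, 59.4 and 178 CPM in the pRPE. In the OS, 8 libraries held 204 CPM or more, above all pRPE libraries, and middle replicate 69 was listed at 0. The log2 fold change was -3.99 (SE 0.92, edgeR adjusted p = 0.0992), which did not pass the test. Without OS replicate 69 it was -4.19 with an adjusted p of 0.0109, and Cdh6 was then called. Cdh6 lies on chromosome 15 from 13028701 to 13173675 on the minus strand (GRCm38, GENCODE M21).

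Replicate 69 of the ventral OS stood apart in several of these genes. Beside the listed 0 of Cdh6 it held the highest Pax2 (714 CPM) and Zic4 (187 CPM) levels of all ventral libraries, and at the same time 13.97 CPM of Gpnmb and 1432 CPM of the melanosome transporter Slc45a2, which the other 8 OS libraries listed at 0. Without it Gpnmb, Gdf11 and Scara5 were still called, Cdh6 and Slc45a2 gained one, and 5 genes were called in all.

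Fzd8, a receptor for Wnt ligands, was counted in all 9 OS libraries and in 3 of 7 pRPE libraries. The OS levels were 201 CPM at the lowest, 302 at the median and 1376 CPM at the highest, and the pRPE libraries with counts held 35.3, 106 and 114 CPM. The groups did not overlap, and the log2 fold change of -3.58 (SE 1.08) did not pass the test (edgeR adjusted p = 0.135). Olfml2a, a secreted olfactomedin-domain protein, was counted in 8 of 9 OS and 3 of 7 pRPE libraries, with a median of 140 and 0 CPM (log2 fold change -4.18, SE 1.26, adjusted p = 0.127). Thsd7a, a membrane protein with thrombospondin repeats, had a median of 151 CPM in the OS and 0 in the pRPE (-5.00, SE 1.45, adjusted p = 0.119), and the tyrosine kinase Lyn one of 83.8 and 0 CPM (-4.78, SE 1.42, adjusted p = 0.124).

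The remaining genes named on the OS side were Dip2b, Hspe1, Tcirg1, Hsf1, Ppil3, Edf1 and Ikzf3, with adjusted p-values from 0.116 to 0.136. Apart from Hsf1, these genes had counts in at most 2 pRPE libraries and passed the filter through the OS alone, as did Lyn. For Dip2b, Hsf1, Tcirg1 and Ppil3 a single library, replicate 38 or 40, held a value far above the others. Ppil3 was at 334 CPM in replicate 38 against 19.6 CPM or less in the other OS libraries, and Dip2b at 783 CPM in replicate 40 against 41.4 CPM or less. Both libraries were among the 3 with the fewest detected genes, and the part of that in these values was not tested. Hspe1, a mitochondrial chaperonin, overlaps Hspd1, and Ppil3 overlaps Nif3l1 on the opposite strand, so their reads cannot be told apart without strand.

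**Figure D3:**
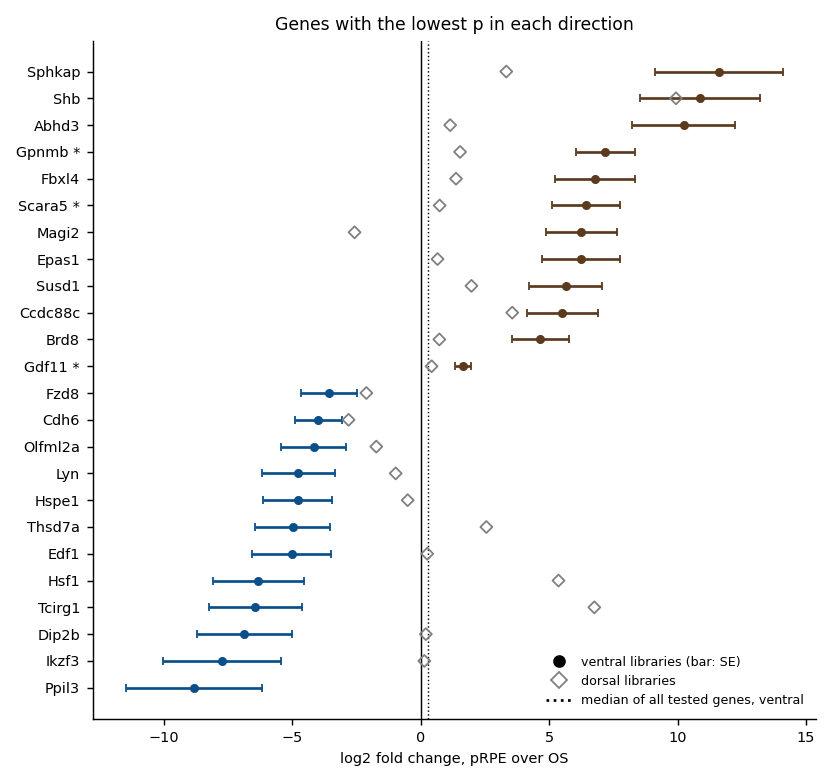
Log2 fold changes of pRPE over OS for the 12 genes with the lowest p in each direction in the ventral libraries (filled points, bars are SE), with the value from the dorsal libraries (open diamonds) and the ventral median of all tested genes, 0.27 (dotted line). Asterisks mark the 3 called genes. Ppil3 was not tested in the dorsal libraries. The diamonds of Magi2, Hsf1, Tcirg1 and Thsd7a lie on the other side of 0 from the filled points, and those of Edf1, Dip2b and Ikzf3 close to 0. Fitted values of Abhd3, Sphkap, Shb, Ppil3 and Ikzf3 rest on groups at or near a listed 0 and are no bounds. The same holds for the dorsal values of Tcirg1 and Shb, which had no count in the dorsal OS.

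Among genes with a count in all 16 libraries, where no listed 0 enters, 375 were tested. The 5 nuclear genes with the lowest p in the pRPE direction were Gdf11, Gm37969, Naa40, Aff4 and Cttnbp2nl. Gm37969 lies within Tcf7l1 on the same strand, so that reads of the host gene could be counted under it. Naa40, which acetylates the N-termini of histones, ran from 2188 over 4882 to 5693 CPM in the pRPE and from 706 over 2376 to 3636 CPM in the OS (log2 fold change 1.03, SE 0.33, edgeR adjusted p = 0.148). The 5 in the OS direction were Gm49702, Stim1, Phf11c, Tbx1 and Wdr87-ps. Gm49702, within Adcy5, ran from 144 over 249 to 672 CPM in the OS and from 0.771 over 26.5 to 63.7 CPM in the pRPE (-3.37, SE 0.73, adjusted p = 0.0816). Phf11c ran from 838 over 1212 to 1879 CPM in the OS and from 11.4 over 403 to 889 CPM in the pRPE (-1.51, SE 0.54, adjusted p = 0.179). Tbx1, a T-box transcription factor, had a lowest, median and highest level of 69.3, 225 and 393 CPM in the OS and of 34.2, 52.4 and 152 CPM in the pRPE (-1.85, SE 0.67, adjusted p = 0.181). By region, the 3 distal OS libraries held 351 to 379 CPM of Tbx1, above the 69.3 to 225 CPM of the 4 middle ones. The 2 proximal ones held 175 and 393 CPM, and the difference between regions was not tested. Of these 10 genes Gdf11 was the one that passed the test over all tested genes. When only genes counted in all 16 libraries were fitted, 5 of 407 were called, Gdf11 and Gm37969 higher and Gm49702, Tbx1 and Wdr87-ps lower in the pRPE.

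The labelled tissues were set against their defining markers. The lists were written with earlier results of these data known, so the counts of members below are no independent support for the labels. Of 31 melanosome and pigment genes, 14 had no count in any ventral library, among them the melanin-synthesis enzymes Tyr, Tyrp1 and Dct, and 8 were tested. Gpnmb was called, Slc45a2 had an unadjusted p under 0.05 in the same direction, and none lay in the other direction at that level. Both passed the filter of 3 libraries through the pRPE alone, so that their number was not set against that of all tested genes. The other 6 had log2 fold changes between -0.93 and 1.84. Slc45a2, which sets melanosome pH, ran from 0 over 400 to 1952 CPM in the pRPE, where proximal replicate 87 was listed at 0, and 8 of 9 OS libraries were listed at 0 (log2 fold change 5.07, SE 2.46, edgeR adjusted p = 0.352). Leaving out 1 library moved its log2 fold change from 3.84 to 13.6, with edgeR adjusted p-values between 0.021 and 0.577. The highest was without OS replicate 69 (adjusted p = 0.021), against OS libraries all at a listed 0. Summed over the 31 genes, the level ran from 303 over a median of 998 to 2664 CPM in the pRPE and from 4.57 over 235 to 1621 CPM in the OS. Pmel, the fibril protein of melanosomes, was too sparse to test, with counts in 2 pRPE libraries.

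Of the 10 pRPE transcription factors, Otx1, Otx2, Pax6, Sox9 and Tfap2a had no count in any ventral library, and 2 were tested. Mitf, the master regulator of pigment genes, was counted in 5 of 7 pRPE libraries and in 1 of 9 OS libraries. Its lowest, median and highest levels were 0, 40.9 and 120 CPM in the pRPE, and the OS library with counts, replicate 39, held 47.8 CPM, the same library that held Scara5. The log2 fold change of 3.31 (SE 1.30) did not pass the test (edgeR adjusted p = 0.210), and leaving out 1 library moved it from 2.38 (without pRPE replicate 87) to 9.09 (without OS replicate 39). Tfec, a relative of Mitf, lay in the other direction. It ran from 0 over 158 to 1070.5 CPM in the pRPE and from 0 over 465.7 to 1438 CPM in the OS, the groups overlapped, and it did not pass the test either (-1.66, SE 1.47, adjusted p = 0.731). In batch A alone the log2 fold change of Tfec was 0.029, and without pRPE replicate 66 or 87 it was -1.07 or -1.09. Summed over the 10 factors, the median level was 236 CPM in the pRPE and 514 CPM in the OS.

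Of 26 genes of the pRPE epithelium and visual cycle, 13 had no count in any ventral library, Rpe65 and Rlbp1 among them, and 7 were tested. None was called. Cdh1 (E-cadherin) and Trpm3, a cation channel of the RPE, had an unadjusted p under 0.05 with higher levels in the pRPE. Cdh1 passed the filter through the pRPE alone, and Trpm3 was 1 of the other 6, beside 8.84% of all tested genes. Cdh1 was counted in 5 of 7 pRPE libraries, up to 274 CPM, and in 1 OS library at 4.25 CPM (log2 fold change 5.72, SE 1.65, edgeR adjusted p = 0.124). Leaving out 1 library moved Cdh1 from 4.77 to 9.68 (without that OS library, replicate 68). Trpm3 had a median of 324 CPM in the pRPE, and 5 of 9 OS libraries were listed at 0 while proximal replicate 40 held 911 CPM (3.50, SE 1.31, adjusted p = 0.186). Leaving out 1 library moved Trpm3 from 1.98 (without pRPE replicate 66) to 5.68 (without OS replicate 40).

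Of 23 optic stalk genes, 6 had no count in any ventral library and 5 were tested. None was called. Zic4 and Pax2 had an unadjusted p under 0.05 with lower levels in the pRPE, and both passed the filter through the OS alone. Of the other 3, Cdh6 and Sema5a had an unadjusted p under 0.05 in the same direction, beside 5.32% of all tested genes, and Robo1 did not (log2 fold change 0.58). Pax2 was counted in 8 of 9 OS libraries and in 1 of 7 pRPE libraries. Its OS levels ran from 0 over 19.8 to 714 CPM, and the pRPE library with counts, proximal replicate 37, held 44.3 CPM (log2 fold change -4.72, SE 1.67, edgeR adjusted p = 0.171). Leaving out 1 library moved it from -11.4 (without pRPE replicate 37) to -3.67 (without OS replicate 40). Zic4, a zinc-finger transcription factor, was counted in 5 of 9 OS libraries, up to 187 CPM, and in no pRPE library. Against the limit of 3 counts per pRPE library its mean OS level was at least 31.98-fold higher, and at least 18.2-fold without OS replicate 69. Sema5a, an axon guidance molecule, had a median of 660 CPM in the OS and 233 CPM in the pRPE, and the groups overlapped (-2.18, SE 0.96, adjusted p = 0.293, and -3.44 without pRPE replicate 87). Summed over the 23 genes, the level ran from 204 over 2629 to 4674 CPM in the OS and from 59.7 over 355 to 1201 CPM in the pRPE. Other stalk markers were near the limit of counting. Vax1 had counts in 1 OS library and Vax2 in 1 pRPE library, and Sox2 held 46 counts over all 16 libraries.

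**Figure D4:**
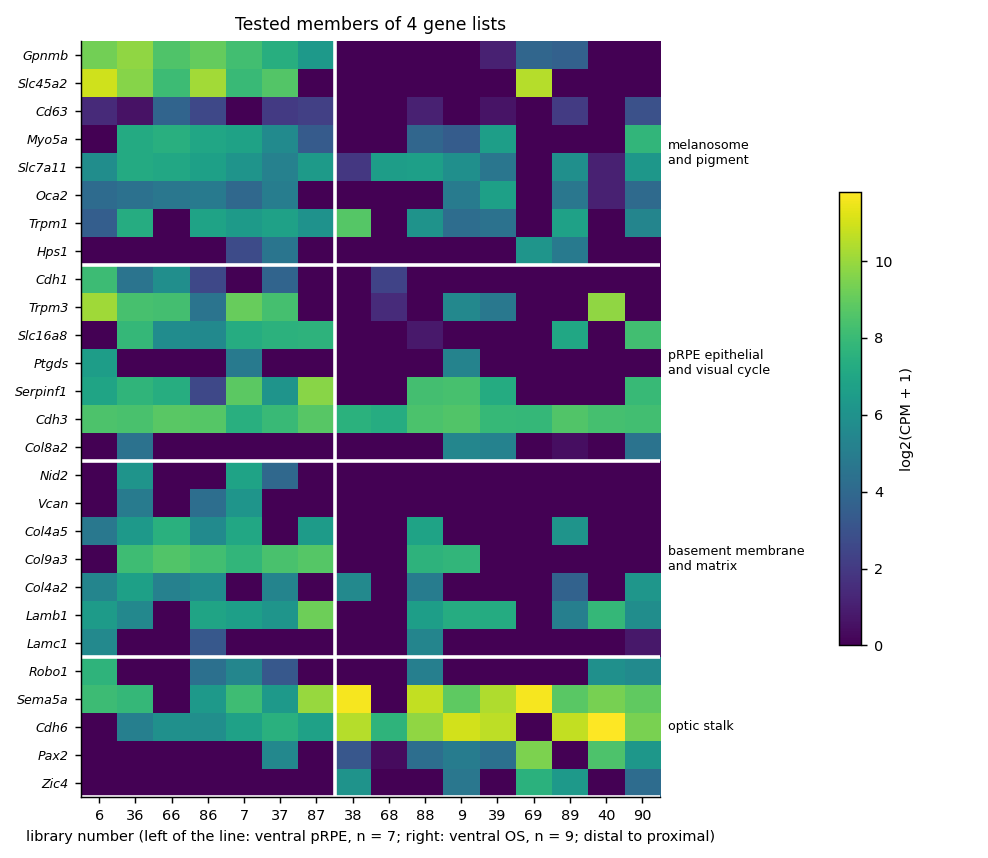
Levels as log2(CPM + 1) of the tested members of 4 gene lists in each ventral library, ordered by region from distal to proximal within the pRPE (left of the white line) and the OS (right), with library numbers below. Dark cells are low or listed at 0. Gpnmb fills all 7 pRPE columns and Cdh6 8 of the 9 OS columns, whereas most other rows are broken by listed 0 values in both tissues, and OS column 69 is bright in Slc45a2 and dark in Cdh6.

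Signalling genes were sparse. Of 22 genes listed under the BMP pathway 4 were tested, and all had log2 fold changes above 0, beside 58.2% of all tested genes. Gdf11 alone was called, beside 0.0628% of all tested genes. It is a ligand of the wider TGF-beta family, so its call is not read as a measure of BMP signalling. Of 26 Wnt pathway genes 4 were tested, of which Fzd8 alone had an unadjusted p under 0.05 (lower in the pRPE, beside 5.32% of all tested genes). Of 15 Hedgehog pathway genes 3 were tested and none had an unadjusted p under 0.05. In the FGF and ERK pathway 3 of 22 were tested. The ERK-responsive factor Etv5 had an unadjusted p under 0.05 with higher levels in the pRPE, beside 8.84% of all tested genes (log2 fold change 2.96, SE 1.29, edgeR adjusted p = 0.269), with a highest level of 135 CPM in the pRPE and of 9.89 CPM in the OS, and it was listed at 0 in 4 of 7 pRPE libraries. The value rested on pRPE replicate 87, without which the log2 fold change was 0.44 (adjusted p = 0.948).

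Of 25 genes in the basement membrane and matrix list 7 were tested and none was called. Nid2 and Vcan had counts in the pRPE only, so they passed the filter through the pRPE alone and could differ in 1 direction only. Among the other 5, Col4a5 had an unadjusted p under 0.05 but also passed through the pRPE alone, and the log2 fold changes ran from 0.74 to 3.16. Col4a5, a chain of type IV collagen, was counted in 6 of 7 pRPE libraries with a median of 82.6 CPM and in 2 of 9 OS libraries (log2 fold change 3.16, SE 1.35, edgeR adjusted p = 0.258). Nid2, which links laminin to collagen, and the proteoglycan Vcan were each counted in 3 pRPE libraries. Their mean pRPE levels were at least 20.2-fold and 12.3-fold higher than the limit of 3 counts per OS library, and at least 9.96-fold and 5.80-fold without pRPE replicate 7. The lowest OS sum over the list was 0 CPM, and the medians of the sums were 603 CPM in the pRPE and 128 CPM in the OS.

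The BAF chromatin remodelling complex, whose subunits Smarcc1 and Smarcc2 the study deleted in other animals, had 12 of 25 genes tested, and none was called. At an unadjusted p under 0.05 were Arid1a and Smarcb1, both higher in the pRPE and both past the filter through the pRPE alone, so that their number was not set against that of all tested genes. Arid1a was counted in 5 of 7 pRPE libraries up to 386 CPM and in 2 of 9 OS libraries, with 182 CPM in replicate 89 and 4.94 CPM in the other (log2 fold change 3.07, SE 1.43, edgeR adjusted p = 0.314). Leaving out 1 library moved it from 2.24 (without pRPE replicate 86) to 7.36 (without OS replicate 89). Smarcb1 was counted in 3 pRPE libraries and no OS library, and its mean pRPE level was at least 26.1-fold higher than the limit of 3 counts per OS library, or at least 2.23-fold without pRPE replicate 6. The scaffold subunits Smarcc1 and Smarcc2 and the ATPase Smarca4 did not pass the test. Smarcc2 was counted in 7 of 7 pRPE and 8 of 9 OS libraries, with medians of 178 and 140 CPM (log2 fold change 0.70, SE 0.77, edgeR adjusted p = 0.802, and 0.44 without pRPE replicate 6 or 86). Smarca4 had medians of 87.6 and 52.7 CPM (1.12, SE 0.94, adjusted p = 0.701). Smarcc1 was counted in 4 libraries of each group (1.79, SE 1.64, adjusted p = 0.741), and its sign turned in batch A alone and without pRPE replicate 87 (-1.53), while without OS replicate 39 it was 4.00.

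Markers of other cell types that a captured area could hold were also counted. Of 23 periocular mesenchyme genes 5 were tested, 1 of them (Col5a2) at an unadjusted p under 0.05 with lower levels in the pRPE (beside 5.32% of all tested genes), and their summed level ran from 17.1 over 178 to 551 CPM in the pRPE and from 4.90 over 290 to 1034 CPM in the OS, on the scale of the summed pigment genes there. Twist1, Prrx1 and Foxc1 had no count. Of 14 endothelial genes 1 was tested, with summed medians of 62.96 (1.09 to 159) CPM in the pRPE and 19.2 (0 to 582) CPM in the OS, and Kdr and Cldn5 had no count. Of 14 blood genes 13 were listed and 1 was tested, with summed medians of 12.5 (0 to 84.9) and 1.16 (0 to 94.05) CPM, and the erythroid genes Alas2 and Klf1 had no count. Of 15 retinal progenitor genes 2 were tested, with summed medians of 11.4 (3.94 to 119) and 0.714 (0 to 193) CPM. Of 18 ganglion cell and axon genes 3 were tested, with summed medians of 127 (42.1 to 351) CPM in the pRPE and 212 (74.7 to 1910) CPM in the OS, and Pou4f1, Pou4f2 and Tubb3 had no count. Among them Nefh, the heavy neurofilament chain, had an unadjusted p under 0.05 with higher levels in the pRPE. It passed the filter through the pRPE alone, where 5 of 7 libraries held counts up to 80.04 CPM, beside 2 of 9 OS libraries up to 28.5 CPM. The log2 fold change of Nefh was 3.40 (SE 1.37, edgeR adjusted p = 0.222). Leaving out 1 library moved it from 2.43 to 8.10 (without OS replicate 88). Of 8 neural crest melanoblast genes 1 was tested, with summed medians of 0 (0 to 94.1) and 25.8 (0 to 247) CPM, and Sox10 had no count. For each of these lists the sums of the groups overlapped. The part of these markers in the results above was not tested. Of 33 cell cycle genes 13 were tested, none with an unadjusted p under 0.05, and of 19 glycolysis genes 3 were tested, with Hk2 alone at that level. It was counted in 4 pRPE libraries and no OS library, so it passed the filter through the pRPE alone.

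The dorsal libraries, 7 of the dorsal pRPE and 7 of the dorsal OS, share no library with the ventral ones, though they may share embryos, and give the same contrast in other areas. There 4 of 6646 genes were called (0.0602%). Gpnmb had a log2 fold change of 1.53 (SE 0.91, edgeR adjusted p = 0.497) in the dorsal libraries, where all 7 OS libraries held counts, with a median of 146 CPM of total counts beside 0 in the ventral OS. The medians of the dorsal and ventral pRPE on that scale were 431 and 427 CPM. The tissue difference was larger in the ventral libraries by 6.09 on the log2 scale, with an edgeR adjusted p of 0.0492 in a test of the interaction over all 30 libraries. Gdf11 differed by 0.42 (SE 0.28) and Scara5 by 0.73 (SE 0.84) between the dorsal tissues, and the interaction of neither passed the test (adjusted p = 0.117 and 0.0952). Cdh6 was lower in the dorsal pRPE by a log2 fold change of -2.81 (SE 1.06, adjusted p = 0.220) and its interaction did not pass the test (adjusted p = 0.773).

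The interaction was called for 35 of 8337 genes (0.42%), 14 with a larger and 21 with a smaller pRPE over OS difference in the ventral libraries. Among the genes named by rule these included Gpnmb, Magi2, Tcirg1 and Hsf1. The block of library numbers in place of the batch, and detected genes per library as a covariate, each left none of the 35 calls, beside 1058 and 1369 genes at an unadjusted p under 0.05. Of the ventral genes at an unadjusted p under 0.05 and higher in the pRPE, 382 could be compared, and 65.97% had the same direction in the dorsal libraries, beside 65.91% of all tested genes with a ventral log2 fold change above 0. Of 211 such genes lower in the pRPE 50.7% did, beside 44.8%. The share was thus near the background for the first group.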

How the data were processed

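RNA of 16 Geo-seq libraries, 7 ventral pRPE and 9 ventral OS, of E12 control embryos was analysed, with 14 dorsal libraries for the interaction. Per the submitters' processing notes, and the study's methods, reads were checked with FastQC and aligned to GRCm38 with HISAT2. Expression was quantified with StringTie. The values deposited by the authors are estimated counts (expected counts), 1 per gene, not normalized. How the deposited counts were derived from its output, and the annotation release, are not given in the sources used here. A total of 270 values in 63 genes were not whole and were rounded.

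Genes with more than 10 counts in at least 3 libraries entered edgeR 4.0.16 under R 4.3.3 (TMM, quasi-likelihood test, batch as covariate). Thresholds were an adjusted p of 0.05 and a log2 fold change of 0.58, and DESeq2 1.42.0 and limma 3.58.1 were alternatives. Library measures were compared with exact permutation tests in python 3.11.15, numpy 2.4.6 and scipy 1.17.1, and figures drawn with matplotlib 3.10.9. The edgeR step was tested on simulated data. Recovery of changes was required only at a spread smaller than that of the data, so the test does not show how many changes are found here. The limit for a group at 0 was 3 counts per library, and covers counting error only.

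Named by rule were the 12 nuclear genes with the lowest p in each direction (mean of at least 20 counts, a count in at least 50% of the libraries of the higher group, the same direction in both batches, no predicted names), 10 fixed regulators, and the 5 in each direction with counts in all libraries. List members at an unadjusted p under 0.05 and genes whose groups did not overlap were named after their values were seen. The comparison, lists and rule were chosen with earlier results of these data known. Alternatives were other scalings, filters, tools and covariates, library blocks, single batches and leaving out each library. Library numbers form 4 blocks. Deviations of pRPE and OS libraries of 1 block correlated with a mean r of -0.0923 (16 pairs), against -0.066 for the other block of the batch (15 pairs), and the labels do not say that a block is an embryo.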

Additional observations from a re-analysis of the deposited data

Results flagged for a closer look

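In 47 of 122 groups of libraries tested (38.5%), 1 library lay far from the rest by Dixon's criterion, which chance gives in about 1 of 20. Groups with mostly listed 0 values meet it readily. In the ventral OS, replicate 39 held the only Scara5 (90.62 CPM), the only Mitf (47.782 CPM), and the highest Smarcc1 (121.93 CPM) and Col5a2 (170.26 CPM). Replicate 69 held the only Slc45a2 (1432.4 CPM) and was highest in Pax2 (713.88 CPM), Zic4 (187 CPM) and Cttnbp2nl (19.787 CPM). Replicate 40 was highest in Dip2b (783.32 CPM), Hsf1 (551.52 CPM), Olfml2a (1124.7 CPM), Trpm3 (910.64 CPM) and Edf1 (223.81 CPM), and replicate 38 in Tcirg1 (466.38 CPM) and Ppil3 (334.24 CPM). Replicate 90 was highest in Fzd8 (1376 CPM), Magi2 (8.0428 CPM) and Epas1 (4.8956 CPM), and replicate 9 in Fbxl4 (20.156 CPM), Brd8 (30.638 CPM) and Susd1 (59.663 CPM). In replicate 88 Ccdc88c was at 73.19 CPM and Nefh at 28.544 CPM, in replicate 68 Abhd3 was at 1.1322 CPM and Cdh1 at 4.2459 CPM, and in replicate 89 Arid1a was at 181.95 CPM.

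In the ventral pRPE, replicate 37 was highest in Tcirg1 (8.1665 CPM), Lyn (58.455 CPM), Edf1 (14.614 CPM) and Pax2 (44.271 CPM), and replicate 36 in Dip2b (4.9743 CPM), Hspe1 (8.2076 CPM) and Ppil3 (0.24871 CPM). Replicate 86 was highest in Magi2 (501.03 CPM), Arid1a (385.68 CPM) and Ikzf3 (0.88054 CPM), and replicate 7 in Col5a2 (18.506 CPM) and Vcan (70.168 CPM). In replicate 6, Fbxl4 reached 853.09 CPM, Tfec 1070.5 CPM, Cdh1 274.01 CPM and Smarcb1 232.61 CPM, and Epas1 was at 212.04 CPM in replicate 66. In replicate 87, Tbx1 was at 152.23 CPM, Smarcc1 at 146.16 CPM, Etv5 at 134.94 CPM and Sema5a at 1005.9 CPM.

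The pRPE over OS difference was not the same in the ventral and dorsal libraries for 35 genes by edgeR's interaction test. The ventral minus dorsal difference of log2 fold changes was 6.089 for Gpnmb, 8.8572 for Magi2, -13.268 for Tcirg1 and -11.669 for Hsf1, each with an edgeR adjusted p of 0.0492. Tcirg1 had no count in the 7 dorsal OS libraries and Hsf1 at most 1.02 CPM there, so the sizes of these fitted differences are not to be read as measured. The replicate block, and detected genes per library as a covariate, each left none of the 35 calls.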

How the results depend on the processing

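The number of called genes, 3 in the main setting, was 1 with TMMwsp, with DESeq2's size factors, with total counts alone, without the batch, with the replicate block of library numbers and with the mitochondrial share as a covariate. It was 6 with filterByExpr, 33 with no filter, 9 with counts in at least 8 libraries, 5 with counts in all 16, 180 by DESeq2, 28 by limma voom and 23 in a fit of all 30 libraries. It was 0 with edgeR's earlier method (375 genes at an unadjusted p under 0.05), Fisher's exact test on the presence of a count (194), counts summed per tissue and block (187), batch A alone (542) and batch B alone (291). Leaving out 1 library gave 1 to 8 calls, with 8 without OS replicate 9, 5 without OS replicate 38 or 69, and 1 without any one of pRPE replicates 6, 7, 36 and 86 or OS replicates 40, 68, 88, 89 and 90. Leaving out the 3 OS libraries with the fewest detected genes, chosen after seeing the data, gave 2 (Gpnmb and Fam107b). The ventral against dorsal difference was called for 770 genes by DESeq2, and for 0 with the replicate block or with detected genes as a covariate, beside 1058 and 1369 at an unadjusted p under 0.05. The difference in detected genes reversed to -381.6 in batch B alone. Of 58 named genes, 56 kept their direction in every alternative fitted, Fisher's exact test aside. Many of them were named for a low p, for the same direction in both batches or for groups that did not overlap. The count therefore follows in part from how the genes were chosen. The log2 fold change of Tfec reversed to 0.029 in batch A alone. The log2 fold change of Smarcc1 reversed to -1.35 in batch A alone, and ran from -1.53 (without pRPE replicate 87) to 4.00 (without OS replicate 39) when 1 library was left out. The causes were not tested. With 45.5% of tested values at 0, many genes rest on few libraries, and a missed call does not show that the tissues did not differ.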
